A study of Mus musculus with 24 samples.

Results

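Retinoic acid is known for switching on genes that place cells along the body axis, and the Hox genes are its best known targets. The 9 genes described here are patterning factors outside the Hox clusters: the TALE homeodomain factors Meis1, Meis2, Pbx2 and Pbx3, the orphan nuclear receptors Nr2f1 and Nr2f2, the caudal homeodomain factor Cdx1, the paired homeodomain factor Pax6 and the zinc finger factor Wt1. They were taken by symbol, as 9 of 19938 genes measured. The rule uses no measured value, but the genes were proposed with earlier results of these data known. Each of them had 1 probe set annotated to its symbol alone, and that set was used throughout. Probe sequences were not used here, so signal shared between relatives such as Meis1 and Meis2 was not tested.

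The cells were D3, a mouse embryonic stem (ES) cell line, carrying either a scrambled control sequence (siSCR) or a sequence that knocks down Prmt1 (siPRMT1), the main enzyme for asymmetric dimethylation of arginine. Each line was measured in 4 states on Affymetrix whole-transcript arrays, with 3 arrays labelled as biological replicates in each of the 8 groups, 24 in all. The states were undifferentiated ES cells, embryoid bodies aggregated for 4 days without the self-renewal factor LIF, and embryoid bodies given all-trans retinoic acid (ATRA, final concentration labelled as 5 mikromol) or its solvent DMSO for 12 h. The labels call the treated bodies day 4 bodies with 12 h of treatment, and give the untreated bodies no solvent. The sources used here do not say whether either line was 1 clone, so a difference between the lines may also be one between clones. The replicates' cultures are not described further, and p-values measure the spread between these arrays.

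Prmt1 itself was lower in siPRMT1 than in siSCR in every state. It stood at 38.6% of the siSCR level in ES cells, 64.6% in day 4 bodies, 46.2% with DMSO and 36.7% with ATRA, each called by limma (the largest adjusted p was 3.2e-07). The pluripotency factor Pou5f1 had group means of 13.12 and 13.29 in the siSCR and siPRMT1 ES cells, a called difference (0.17 ± 0.041, limma adjusted p = 0.0057). The mean over 8 pluripotency genes lay between 11.13 and 11.71 on every array, in the embryoid bodies too. Between the lines 3 of the 8 were called higher and 0 lower in siPRMT1 ES cells (7.63% and 11.2% of all genes). At day 4, 0 were higher and 3 lower (11.4% and 7.01%). From ES cells to day 4, 1 was higher and 1 lower in siSCR (14.5% and 13.7%). In siPRMT1 0 were higher and 4 lower (23.0% and 18.4%), led by Klf4 (-1.32 ± 0.12). The 6 siSCR arrays of DMSO and ATRA stood apart from the other 18. They scored 50.1 to 61.2 on the first principal component, which held 52.2% of the variance, against -26.8 to -9.44 for the rest, and their standard deviations over genes were 1.98 to 2.07 against 2.15 to 2.27. Every comparison of siPRMT1 with siSCR under DMSO or ATRA, and of DMSO with untreated siSCR bodies, crosses this border. There the difference between conditions and the difference between the 6 arrays and the rest cannot be told apart. The ATRA response of siSCR lies within the 6 arrays, and the other comparisons within a line or between the lines in ES cells and at day 4 lie within the 18.

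MEIS and PBX proteins bind DNA as partners of Hox proteins and of each other, and sharpen which sites a Hox protein occupies. Nr2f1 and Nr2f2 (COUP-TFI and COUP-TFII) bind repeats of the nuclear receptor half-site, many of which retinoid receptors also use, and are known for limiting or relaying retinoid signals. Cdx1 carries retinoid signals to Hox genes of the trunk, Pax6 is a master regulator of the eye and of the neural tube, and Wt1 is required for kidney, gonad and mesothelium. By the RefSeq gene table of GRCm38.p6, 4 of the 9 genes, Meis2, Pbx3, Pax6 and Wt1, lie on chromosome 2. Wt1 and Pax6 are close neighbours there, with 2 protein-coding genes, Them7 and Rcn1, lying wholly between them.

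Promoter windows, the 250 bases before an annotated start, were taken from RefSeq on GRCm38.p6. The search covered 8 windows of 6 of the 9 genes. Pbx3 and Wt1 had no window in the set used, and Cdx1 was left out of the search. The motif counts of the members therefore do not cover Cdx1, the member with the largest ATRA response. Both strands were searched for 7 short motifs, given here with the share of 32851 mouse windows that hold each: the nuclear receptor half-site AGGTCA (14.0%), the MEIS core TGACAG (15.9%), the PBX-HOX motif TGATNNAT (7.7%), the CDX core TTTATG (10.8%), the CCAAT box (33.8%), the TATA box TATAAA (12.4%) and the GC box CCGCCC (32.7%). Matches to different motifs may overlap, and a match is a description of the letters, not of binding. Of the 8 windows, 0 held AGGTCA and 7 held at least 1 of the 7 motifs. The 4 windows of Meis1, Meis2 and Pax6 are shown because these genes were the members whose ATRA response differed between the 2 lines. Capitals mark the motif matches, and each sequence runs 5′ to 3′ towards the gene.
Meis1, chr11:19018970-19019219, minus strand: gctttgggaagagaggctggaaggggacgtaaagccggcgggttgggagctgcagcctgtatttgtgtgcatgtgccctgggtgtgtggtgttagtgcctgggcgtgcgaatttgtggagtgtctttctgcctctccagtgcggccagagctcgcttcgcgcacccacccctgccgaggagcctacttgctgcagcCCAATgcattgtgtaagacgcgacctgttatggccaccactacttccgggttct
Meis2, chr2:116064620-116064869, minus strand: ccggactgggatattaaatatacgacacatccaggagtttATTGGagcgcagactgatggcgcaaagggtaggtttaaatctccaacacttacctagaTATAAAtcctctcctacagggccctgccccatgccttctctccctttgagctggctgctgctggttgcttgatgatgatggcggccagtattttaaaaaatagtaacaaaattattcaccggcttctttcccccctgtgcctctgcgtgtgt
Pax6, first window, chr2:105668646-105668895, plus strand: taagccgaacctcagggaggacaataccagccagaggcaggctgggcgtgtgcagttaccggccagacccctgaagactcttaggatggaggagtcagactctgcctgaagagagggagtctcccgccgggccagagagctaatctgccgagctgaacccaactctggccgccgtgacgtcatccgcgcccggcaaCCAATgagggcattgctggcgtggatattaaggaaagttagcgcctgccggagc
Pax6, second window, chr2:105682213-105682462, plus strand: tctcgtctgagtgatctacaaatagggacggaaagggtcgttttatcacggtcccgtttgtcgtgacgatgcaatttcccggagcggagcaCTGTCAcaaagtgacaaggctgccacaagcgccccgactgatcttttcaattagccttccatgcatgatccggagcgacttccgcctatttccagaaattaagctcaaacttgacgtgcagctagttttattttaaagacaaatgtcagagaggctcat
Meis1 and the first Pax6 window each hold CCAAT, and in both it starts 54 bases before the annotated start. Meis2 holds it on the other strand at 210 bases and TATAAA at 152. In the second Pax6 window the MEIS core lies on the other strand at 159 bases before the start.

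**Figure D1:**
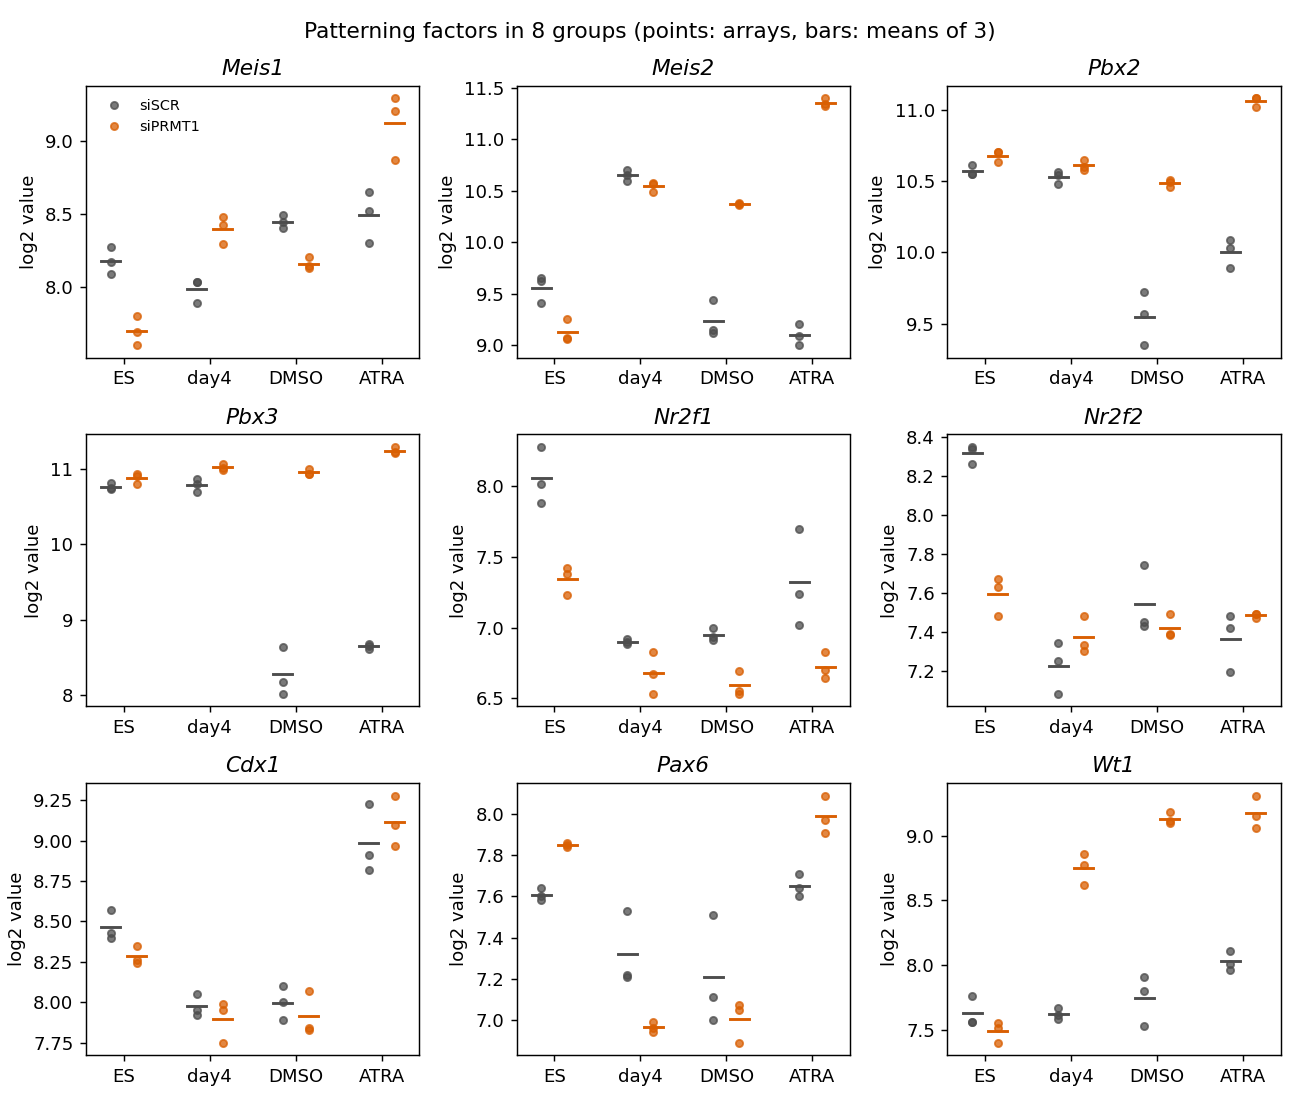
Deposited log2 value of each of the 9 genes (y axis, a separate scale per gene) on every array (points) with the mean of 3 (bars), in the 4 states of siSCR (grey) and siPRMT1 (orange). Pbx3 is at 8.01 to 8.68 on the 6 siSCR arrays that stand apart and at 10.7 or above on the other 18, and Wt1 is at 8.62 or above only on the 9 arrays of siPRMT1 embryoid bodies.

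All values below are log2 values, differences are differences of log2 means of 3 arrays, and ± is the standard error from limma. A gene is said to have risen or fallen where its p, adjusted over 19938 genes, was under 0.05. The members' counts are set beside the share of all genes called in the same direction, and the counts of other gene lists are to be read against the same shares. Counts at an unadjusted p were not made over all genes and have no such share.

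Between the lines in ES cells, 0 of the 9 genes were higher in siPRMT1 (7.63% of all genes, and 1 member at an unadjusted p under 0.05) and 4 were lower (11.2% of all genes): Nr2f2, Nr2f1, Meis1 and Meis2. At day 4, 2 were higher (11.4%), Wt1 and Meis1, and 1 was lower (7.01%), Pax6. Under DMSO 4 were higher (31.3%) and 2 lower (34.6%), and under ATRA 6 were higher (32.2%) and 1 lower (38.0%). The members' median difference was -0.18 in ES cells, 0.08 at day 4, -0.08 under DMSO and 0.63 under ATRA, beside 0.01, -0.02, -0.09 and -0.11 over all genes.

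On embryoid body formation, 1 gene rose in siSCR (14.5% of all genes), Meis2, and 4 fell (13.7%). In siPRMT1 3 rose (23.0%), Meis2, Wt1 and Meis1, and 4 fell (18.4%): Pax6, Nr2f1, Cdx1 and Nr2f2. The 2 lines' changes differed in 6 of the 9 genes, 5 with the higher change in siPRMT1 (15.0% of all genes) and 1, Pax6, with the lower (8.83%). The members' medians were -0.19, -0.07 and 0.33 in these 3 comparisons, beside 0, -0.04 and -0.02 over all genes. Both lines' changes enter the test of their difference, so these counts are not separate evidence.

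With ATRA against DMSO, 6 of the 9 rose in siSCR (11.2%) and 0 fell (12.2%), and in siPRMT1 5 rose (6.05%) and 0 fell (5.94%). No member fell at an unadjusted p under 0.05 in either line, where limma gave a count of 0 in each on the values as deposited. On rescaled arrays 1 member, Nr2f2, fell in siSCR, with an adjusted p of 0.0264 to 0.0443. Cdx1, Pax6 and Pbx2 are the 3 genes that rose in both. The response was higher in siPRMT1 for 3 members (1.92%) and lower for 0 (1.32%, and 0 at an unadjusted p under 0.05). The medians were 0.38, 0.58 and 0.21, beside 0.03, 0.03 and 0 over all genes. When only the 6 siSCR arrays of DMSO and ATRA were fitted, 1 of the 6 siSCR calls was kept, that of Cdx1. In that fit 2.73% of all genes were called in either direction. With array weights 3 members were called in siSCR, beside 7.86% of all genes.

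DMSO bodies against untreated day 4 bodies gave 2 members higher (30.8%) and 3 lower (30.3%) in siSCR, with a median of 0.02 against 0.07 over all genes. In siPRMT1 none of the 9 was called, against 0.306% of all genes higher and 0.155% lower, by limma. At an unadjusted p under 0.05 1 member was higher and 2 lower there, which was not counted over all genes. With array weights 4 members were called, beside 12.7% of all genes in either direction. The median was -0.06, beside 0 over all genes.

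The split of all genes into higher and lower calls moved with the scaling of the arrays. The share of calls that were higher was 40.6% in ES cells as deposited, 58.8% once each array was centred on its median and 62.5% once all arrays were also given one standard deviation. At day 4 it was 61.9%, and 50% after scaling. On embryoid body formation it was 51.3%, 66.1% and 64.2% in siSCR, and 63%, 48.6% and 41.6% for the difference between the lines. For ATRA it was 47.8%, 27.4% and 34.8% in siSCR, and 50.5% and, centred, 35.1% in siPRMT1. Between the lines under DMSO it was 47.5% and, scaled, 36.9%. For DMSO against untreated bodies it was 50.4%, 62% and 63.2% in siSCR and 66.3%, 82.4% and 89.3% in siPRMT1. None of the 9 members' called differences changed sign under these scalings, but calls near the threshold were lost or gained. Centring and scaling both lost the calls of Meis2 (0.27 and 0.22) and Nr2f1 (0.43 and 0.46) for the difference on embryoid body formation, of the fall of Pax6 in siSCR (-0.22 and -0.21), and of the ATRA rises of Nr2f1 (0.31 and 0.30) and Wt1 (0.22 and 0.23) in siSCR. Scaling also lost the fall of Nr2f2 on embryoid body formation in siPRMT1 (-0.19). Both gained a call of Pax6 between the lines in ES cells (0.30 and 0.29) and of Nr2f2 with ATRA in siSCR, and centring alone gained Pax6 (-0.29) and Nr2f2 (-0.21) between the lines with DMSO and Wt1 with DMSO against untreated siSCR bodies (0.22).

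Meis1 was lowest in siPRMT1 ES cells and highest in siPRMT1 bodies given ATRA. In ES cells it read 8.27, 8.17 and 8.09 in siSCR and 7.69, 7.8 and 7.6 in siPRMT1. In day 4 bodies the order of the lines was turned, with 8.03, 8.03 and 7.89 in siSCR and 8.48, 8.42 and 8.29 in siPRMT1. In neither state did the groups overlap. Meis1 was thus lower in siPRMT1 by a log2 difference of -0.48 ± 0.096 in ES cells (limma adjusted p = 0.0011) and higher by 0.41 ± 0.096 at day 4 (adjusted p = 0.00416). On embryoid body formation it rose by 0.70 ± 0.096 in siPRMT1 (adjusted p = 5.4e-06) and differed by -0.19 ± 0.096 in siSCR, which was not called (adjusted p = 0.159). The difference between the lines' changes was 0.89 ± 0.14 (adjusted p = 5.72e-05). These are bulk samples, in which fewer cells of a type and less RNA per cell cannot be told apart.

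The ATRA response of Meis1 was called in siPRMT1 and not in siSCR, and the difference between the lines was itself called. In siSCR the DMSO arrays read 8.44, 8.4 and 8.49 and the ATRA arrays 8.52, 8.65 and 8.3, which overlap. In siPRMT1 DMSO gave 8.14, 8.13 and 8.2 and ATRA 9.29, 9.2 and 8.87, which do not. Meis1 rose by 0.97 ± 0.096 in siPRMT1 (limma adjusted p = 2.86e-07), against 0.05 ± 0.096 in siSCR (adjusted p = 0.744). The difference of 0.92 ± 0.14 (adjusted p = 0.000584) was the 28th highest of 19938 genes. It sets a response measured within the 6 arrays that stand apart against one measured outside them. Between the lines Meis1 was lower in siPRMT1 by -0.29 ± 0.096 with DMSO (adjusted p = 0.0133) and higher by 0.63 ± 0.096 with ATRA (adjusted p = 8.7e-06), across that border.

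Meis2 rose on embryoid body formation in both lines, and with ATRA in siPRMT1. It read 9.65, 9.41 and 9.62 in siSCR ES cells and 10.65, 10.6 and 10.7 in siSCR day 4 bodies. The siPRMT1 arrays read 9.25, 9.07 and 9.06 and then 10.58, 10.49 and 10.57. All day 4 arrays were above all ES arrays. The rise was 1.09 ± 0.08 in siSCR, or 2.13-fold (limma adjusted p = 9.31e-10), and 1.42 ± 0.08 in siPRMT1, or 2.67-fold (adjusted p = 1.28e-11). The larger rise in siPRMT1 came with a lower start: Meis2 was lower there by -0.43 ± 0.08 in ES cells (adjusted p = 0.000548) and differed by -0.11 ± 0.08 at day 4, which was not called (adjusted p = 0.427). The difference between the rises, 0.33 ± 0.11, was called at an adjusted p of 0.0408. It was not called in the fits that left out any 1 of 8 of the 12 arrays, and without the first siSCR ES array it was 0.29 with an adjusted p of 0.107.

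With DMSO the 3 siSCR arrays of Meis2 read 9.15, 9.44 and 9.12, and with ATRA 9.21, 9 and 9.09. In siPRMT1 they read 10.38, 10.37 and 10.36 with DMSO and 11.4, 11.32 and 11.34 with ATRA. The siSCR groups overlap, while every siPRMT1 array given ATRA exceeds every other of the 24 arrays. The response was -0.13 ± 0.08 in siSCR, which was not called (limma adjusted p = 0.243), and a rise of 0.99 ± 0.08, or 1.98-fold, in siPRMT1 (adjusted p = 1.58e-08). The difference between the responses, 1.12 ± 0.11 (adjusted p = 6.63e-06), was the 11th highest of all genes. In siSCR Meis2 was also lower with DMSO than in untreated bodies by -1.42 ± 0.08 (adjusted p = 5.25e-12), a step that crosses the border of the 6 arrays, whereas the same step in siPRMT1 was -0.18 ± 0.08 and was not called (adjusted p = 0.575). Across that border Meis2 was 2.2-fold higher in siPRMT1 with DMSO and 4.77-fold with ATRA, the 26th highest difference of all genes.

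Pbx2 and Pbx3, the other TALE partners among the 9, held a narrow range in ES cells and untreated bodies of both lines and stood low on the 6 siSCR arrays. Pbx3 read 10.75, 10.74 and 10.82 in siSCR ES cells and 10.7, 10.87 and 10.8 at day 4, and 10.94, 10.81 and 10.91 and then 11.02, 11.07 and 10.99 in siPRMT1. With DMSO it read 8.63, 8.17 and 8.01 in siSCR and 10.94, 10.94 and 11 in siPRMT1. With ATRA it read 8.65, 8.61 and 8.68, and 11.23, 11.22 and 11.3. The 6 siSCR arrays lie more than 2 log2 units below each of the other 18. Pbx3 was 6.45-fold higher in siPRMT1 with DMSO (2.69 ± 0.097, limma adjusted p = 8.35e-15) and 6.06-fold with ATRA (2.60 ± 0.097, adjusted p = 1.09e-14), the 7th and 9th highest differences of all genes. In siSCR the DMSO bodies kept 17.4% of the untreated level (-2.52 ± 0.097, adjusted p = 2.7e-14). All of these cross the border of the 6 arrays and cannot be told apart from it.

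Where the arrays do not cross that border the differences of Pbx3 were small. Between the lines it was 0.12 ± 0.097 in ES cells (limma adjusted p = 0.493) and 0.23 ± 0.097 at day 4 (adjusted p = 0.107), neither of which was called, though at day 4 the groups do not overlap. Fitted without the 6 arrays, the day 4 difference was called (adjusted p = 0.0031). With ATRA Pbx3 rose in siSCR by 0.38 ± 0.097 (adjusted p = 0.00844), but its first DMSO array, at 8.63, lies within the ATRA values. Without the third DMSO array the rise was 0.25 with an adjusted p of 0.0539. The call was also lost when only the groups compared were fitted (0.38, adjusted p = 0.215) and with array weights (0.37, adjusted p = 0.0621). In siPRMT1 the ATRA difference was 0.29 ± 0.097 and was not called (adjusted p = 0.0614), with no overlap; without the 6 siSCR arrays it was called (adjusted p = 0.00076). The difference between the responses was -0.09 ± 0.14 (adjusted p = 0.8).

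Pbx2 rose with ATRA in both lines. It read 9.72, 9.57 and 9.35 with DMSO and 10.09, 9.89 and 10.03 with ATRA in siSCR. In siPRMT1 it read 10.46, 10.49 and 10.51, and 11.08, 11.08 and 11.02. The groups do not overlap in either line. The rises were 0.46 ± 0.069 (limma adjusted p = 8.27e-05) and 0.58 ± 0.069 (adjusted p = 4.07e-06), and their difference was 0.12 ± 0.098 (adjusted p = 0.585). When only the groups compared were fitted, the siSCR rise was 0.46 ± 0.12 and was not called (adjusted p = 0.0846). In ES cells Pbx2 ranged over 10.55 to 10.61 in siSCR and 10.63 to 10.7 in siPRMT1, and at day 4 over 10.48 to 10.56 and 10.58 to 10.65. Neither the differences between the lines (0.10 and 0.08 ± 0.069) nor the changes on embryoid body formation (-0.04 and -0.07 ± 0.069) were called. Across the border of the 6 arrays Pbx2 was 1.92-fold higher in siPRMT1 with DMSO and 2.08-fold with ATRA, and siSCR bodies given DMSO were at 50.6% of the untreated ones.

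The other TALE genes, 13 measured of 14 listed, among them Meis3, Pknox1, Tgif1 and the Irx genes, were described in the same comparisons. With ATRA in siSCR 0 of the 13 were called by limma, with a median of 0.02, against 11.2% of all genes higher and 12.2% lower. In siPRMT1 2 rose, against 6.05% of all genes, Pknox2 by 0.97 ± 0.11 and Pbx4 by 0.30 ± 0.07. Pknox2, a relative of the Meis factors, also had the called difference between the lines' responses, 1.06 ± 0.16, across the border of the 6 arrays. On embryoid body formation 2 rose and 4 fell in siSCR and 3 rose and 3 fell in siPRMT1. Of the 13 in ES cells, Tgif2 was higher (0.27 ± 0.073) and Mkx lower (-0.51 ± 0.076) in siPRMT1, and at day 4 Meis3 (0.44 ± 0.1) and Mkx (0.29 ± 0.076) were higher and Irx2 lower (-0.31 ± 0.072).

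Nr2f1 and Nr2f2 were highest in siSCR ES cells, lower in siPRMT1 ES cells and low in embryoid bodies. Nr2f1 read 8.28, 8.02 and 7.88 in siSCR ES cells and 7.38, 7.42 and 7.23 in siPRMT1 ES cells. Nr2f2 read 8.35, 8.26 and 8.34, and 7.67, 7.63 and 7.48. In both genes the lowest siSCR array lies above the highest siPRMT1 array. The siPRMT1 cells had 61% of the siSCR level of Nr2f1 (-0.71 ± 0.12, limma adjusted p = 3e-04) and 60.6% of that of Nr2f2 (-0.72 ± 0.088, adjusted p = 6.11e-06).

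At day 4 Nr2f1 read 6.88, 6.9 and 6.92 in siSCR and 6.83, 6.53 and 6.67 in siPRMT1, and Nr2f2 read 7.08, 7.34 and 7.25, and 7.33, 7.48 and 7.3. The lines no longer differed by a called amount: -0.23 ± 0.12 for Nr2f1 (limma adjusted p = 0.244) and 0.14 ± 0.088 for Nr2f2 (adjusted p = 0.313). On embryoid body formation Nr2f1 fell to 44.9% in siSCR and 62.9% in siPRMT1, and Nr2f2 to 46.9% and 85.3%. For Nr2f2 the lines' falls differed by 0.86 ± 0.12 (adjusted p = 3.14e-05). The smaller fall in siPRMT1 came with a lower start, a mean of 7.6 against 8.32 in ES cells. The day 4 means of siSCR and siPRMT1, 7.22 and 7.37 for Nr2f2 and 6.9 and 6.68 for Nr2f1, lay below the array medians of 7.47 to 7.67. For Nr2f1 the lines' falls differed by 0.49 ± 0.18 (adjusted p = 0.0493), a call lost without any 1 of 10 of the 12 arrays, for example 0.38 with an adjusted p of 0.15 without the first siSCR ES array. The fall of Nr2f2 in siPRMT1 (-0.23 ± 0.088, adjusted p = 0.0429) was also near the threshold and was lost without the first or second siPRMT1 ES array or the first or the third siPRMT1 day 4 array, with adjusted p of 0.138, 0.111, 0.118 and 0.139 and a difference of -0.19 to -0.21. After quantile normalization it was -0.10 (adjusted p = 0.474).

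Markers of fibroblasts moved with these falls. Of 17 listed genes 16 were measured, and their mean lay at 9.04 to 9.07 on the siSCR ES arrays, 8.58 to 8.65 on the siPRMT1 ES arrays, 7.78 to 7.95 on the siSCR day 4 arrays and 7.59 to 7.61 on the siPRMT1 day 4 arrays. In ES cells 11 of the 16 were lower in siPRMT1 (11.2% of all genes) and 0 higher, with S100a4 (-1.01 ± 0.11), Prrx1 (-1.01 ± 0.13) and Acta2 (-0.96 ± 0.15) lowest. On embryoid body formation 14 fell in each line (13.7% and 18.4% of all genes), with medians of -1.13 in siSCR and -0.99 in siPRMT1. The listed marker Dcn had means of 11.02 and 10.62 in the siSCR and siPRMT1 ES cells and 9.16 and 8.4 at day 4. Per the labels the cells had been moved from feeder cells onto gelatin before the experiments. The part of such cells in the values of Nr2f1, Nr2f2, Meis1 and Meis2 in ES cells was not tested.

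With ATRA, Nr2f1 read 7.7, 7.24 and 7.02 in siSCR after 6.91, 6.93 and 7 with DMSO, and 6.7, 6.64 and 6.83 in siPRMT1 after 6.53, 6.55 and 6.69. The siSCR rise of 0.38 ± 0.12 was called (limma adjusted p = 0.0339) with no overlap, but the first ATRA array stands well above the others, and without it the rise was 0.19 with an adjusted p of 0.2. The call was also lost without the first (0.36, adjusted p = 0.082) or second (0.37, adjusted p = 0.078) DMSO array. The siPRMT1 response was 0.13 ± 0.12 (adjusted p = 0.597), and the difference between the lines was not called (-0.24 ± 0.18, adjusted p = 0.519). Nr2f2 ranged over 7.43 to 7.74 with DMSO and 7.19 to 7.48 with ATRA in siSCR, and over 7.38 to 7.49 and 7.47 to 7.49 in siPRMT1, with overlap in both lines and no call. The siSCR difference of -0.18 ± 0.088 (adjusted p = 0.148) was called on rescaled arrays: -0.28 after quantile normalization (adjusted p = 0.0423), -0.25 after centring (adjusted p = 0.0443) and -0.29 after scaling to one standard deviation (adjusted p = 0.0264). Between the lines Nr2f1 was lower in siPRMT1 with DMSO (-0.35 ± 0.12, adjusted p = 0.0177) and with ATRA (-0.60 ± 0.12, adjusted p = 0.000293), across the border of the 6 arrays. The DMSO call was lost without the third siSCR array (-0.33, adjusted p = 0.0542) or the first siPRMT1 array (-0.32, adjusted p = 0.0577), and after quantile normalization (-0.15, adjusted p = 0.373). Nr2f2 was higher with DMSO than in untreated siSCR bodies by 0.32 ± 0.088 (adjusted p = 0.00427), over the same border. With ATRA Nr2f2 differed between the lines by 0.12 ± 0.088 (adjusted p = 0.213), and by 0.31 after quantile normalization (adjusted p = 0.00896).

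Of 5 other Nr2 genes listed, 4 were measured. With ATRA 1 rose in each line, Nr2f6, another COUP-TF relative, by 0.31 ± 0.069 in siSCR, and Nr2c1, a testicular orphan receptor, by 0.51 ± 0.071 in siPRMT1. In ES cells 1 of the 4, Nr2c2, was lower in siPRMT1 (-0.21 ± 0.065), and at day 4 none was called. Embryoid body formation called 0 of the 4 in siSCR and 1, Nr2c2, in siPRMT1, where it rose by 0.19 ± 0.065.

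**Figure D2:**
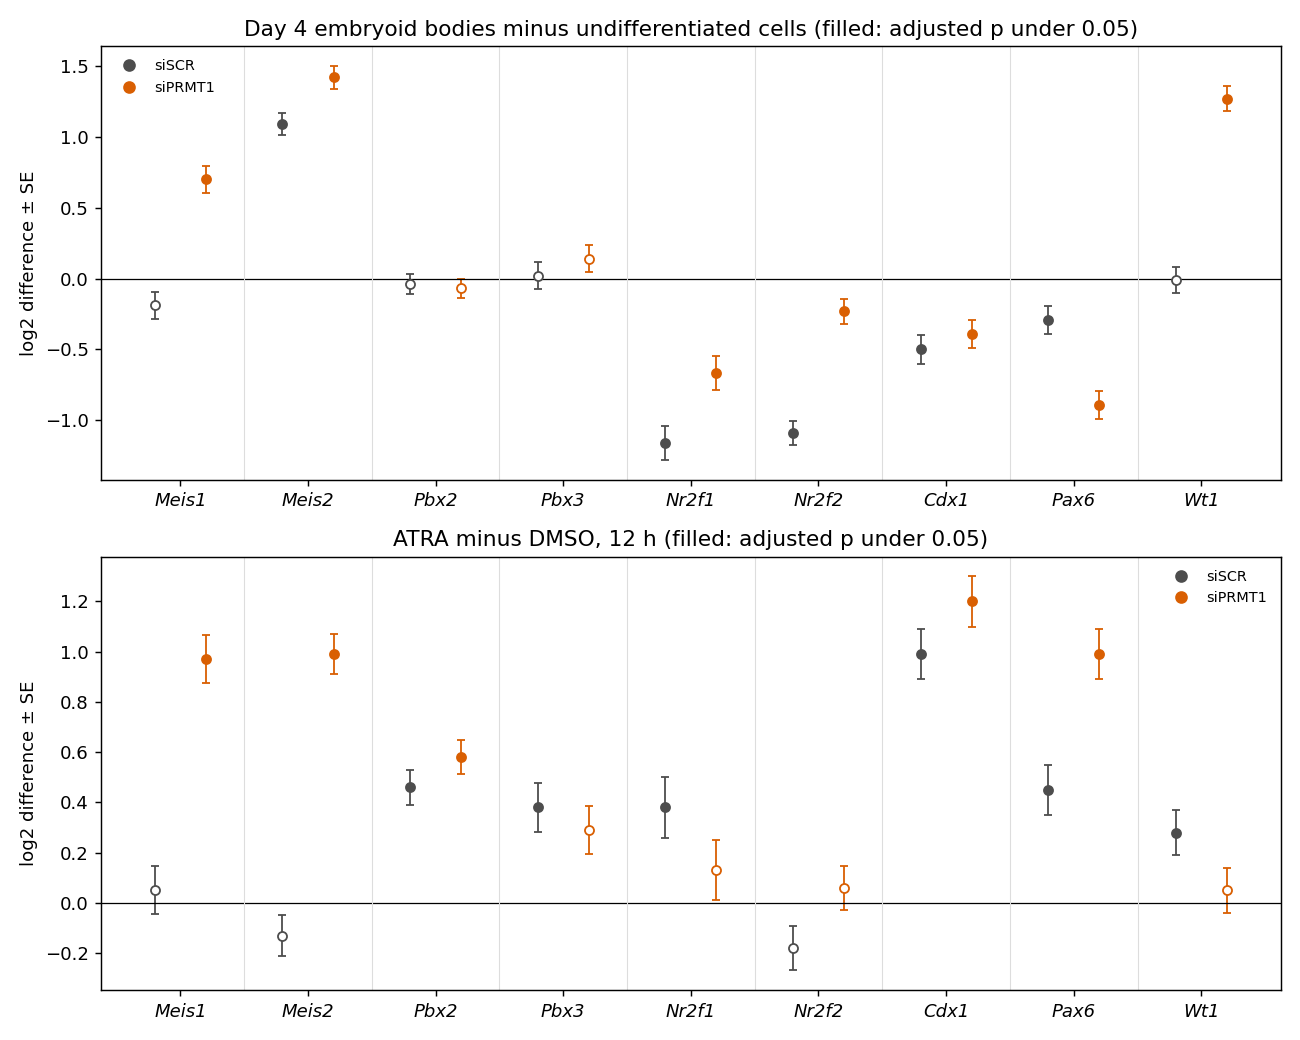
Log2 difference with its standard error (y axis) for each of the 9 genes, in siSCR (grey) and siPRMT1 (orange), with filled points for an adjusted p under 0.05. In the upper panel (day 4 bodies minus ES cells) Wt1 is at 1.27 in siPRMT1 and -0.01 in siSCR, and in the lower panel (ATRA minus DMSO) Cdx1 is near 1 in both lines while Meis1 and Meis2 are near 1 in siPRMT1 alone.

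Cdx1 had the largest ATRA response of the 9 genes in each line. It read 8, 8.1 and 7.89 with DMSO and 8.82, 8.91 and 9.23 with ATRA in siSCR. In siPRMT1 it read 7.84, 8.07 and 7.83, and 9.28, 9.1 and 8.97. Every ATRA array lies above every other array of the 24. The rise was 1.99-fold in siSCR (0.99 ± 0.1, limma adjusted p = 5.09e-07) and 2.3-fold in siPRMT1 (1.2 ± 0.1, adjusted p = 2.13e-08), the 50th and 64th highest of all genes. The lines' responses differed by 0.21 ± 0.14, which was not called (adjusted p = 0.479), and the alternatives gave 0 to 0.35.

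Cdx1 fell on embryoid body formation in both lines. In ES cells it read 8.43, 8.4 and 8.57 in siSCR and 8.24, 8.35 and 8.26 in siPRMT1, and at day 4 7.92, 7.95 and 8.05, and 7.75, 7.95 and 7.99. No day 4 array reached an ES array of its line. The falls were -0.50 ± 0.1 (limma adjusted p = 0.000594) and -0.39 ± 0.1 (adjusted p = 0.00384), and their difference was 0.11 ± 0.14 (adjusted p = 0.637). Between the lines no difference of Cdx1 was called in any of the 4 states, where they ran from -0.18 to 0.13. Without the third siSCR ATRA array, the highest of its group, Cdx1 was higher in siPRMT1 with ATRA by 0.25 (limma adjusted p = 0.0277). That comparison crosses the border of the siSCR arrays that stand apart. Its difference ran from 0.05 to 0.25 over the fits with an array left out, and from -0.06 to 0.22 over the other alternatives. With array weights Cdx1 was lower in siPRMT1 ES cells by -0.25 (limma adjusted p = 0.0175).

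Pax6 fell on embryoid body formation and rose with ATRA, in both steps further in siPRMT1. In ES cells it read 7.64, 7.58 and 7.6 in siSCR and 7.84, 7.85 and 7.86 in siPRMT1. At day 4 it read 7.21, 7.53 and 7.22, and 6.94, 6.96 and 6.99. The siPRMT1 arrays are thus above all siSCR arrays in ES cells and below them at day 4. Only the second of these differences was called: 0.25 ± 0.099 in ES cells (limma adjusted p = 0.0929) and -0.36 ± 0.099 at day 4 (adjusted p = 0.0138). Without the second siSCR day 4 array, the highest, the day 4 difference was -0.26 with an adjusted p of 0.112. Without the 6 siSCR arrays the ES difference was called (adjusted p = 0.0207).

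The fall of Pax6 was -0.89 ± 0.099 in siPRMT1, to 53.9% (limma adjusted p = 3.09e-07), and -0.29 ± 0.099 in siSCR (adjusted p = 0.0349). The lines differed by -0.61 ± 0.14 (adjusted p = 0.00297). The siSCR call was lost without any 1 of 5 of its 6 arrays, with an adjusted p of up to 0.151 without the third day 4 array, where the fall was -0.23. The day 4 means of Pax6 in siSCR and siPRMT1, 7.32 and 6.96, lay below the array medians of 7.47 to 7.67. So did its DMSO means, 7.2 and 7.

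With DMSO Pax6 read 7, 7.11 and 7.51 in siSCR and 7.05, 7.07 and 6.89 in siPRMT1. With ATRA it read 7.6, 7.64 and 7.71, and 7.97, 8.09 and 7.91. The groups do not overlap in either line, although the third siSCR DMSO array came near. Pax6 rose by 0.45 ± 0.099 in siSCR (limma adjusted p = 0.00286) and by 0.99 ± 0.099, or 1.98-fold, in siPRMT1 (adjusted p = 2.96e-07). When only the groups compared were fitted, the siSCR rise was not called (adjusted p = 0.125). The difference between the rises, 0.54 ± 0.14, was called at an adjusted p of 0.0377. It was not called in a fit of these 4 groups alone (adjusted p = 0.184) or without any 1 of 8 of the 12 arrays. Without the third siSCR DMSO array it was 0.39 (adjusted p = 0.0573), and without the second siPRMT1 ATRA array 0.49 (adjusted p = 0.119). With DMSO the lines overlapped and differed by -0.20 ± 0.099, which was not called (adjusted p = 0.0804). Without the first siSCR array the difference was -0.30 (adjusted p = 0.0131). It ran from -0.30 to -0.05 over the fits with 1 array left out, and from -0.29 to -0.04 over the other alternatives. Between the lines Pax6 was higher in siPRMT1 with ATRA by 0.34 ± 0.099 (adjusted p = 0.00469), across the border of the 6 arrays.

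Of 10 other Cdx and Pax genes, all measured, none was called with ATRA in siSCR, with a median of 0.14. In siPRMT1 1 rose, Pax2 by 0.27 ± 0.08, and 1 fell, Pax8 by -0.38 ± 0.059. At day 4 Cdx4, which like Cdx1 acts on posterior Hox genes, was higher in siPRMT1 (0.76 ± 0.18), as was Pax8 (0.38 ± 0.059). The day 4 means of Cdx4, 6.1 in siPRMT1 and 5.34 in siSCR, lay below the array medians of 7.47 to 7.67. Cdx4 was not called between the lines with DMSO (0.16) or ATRA (-0.09). In ES cells Pax8 was higher (0.40 ± 0.059) and Pax2 lower (-0.51 ± 0.08). Of 8 neural progenitor genes 7 were measured, and 1, Nes, fell with ATRA in siSCR (-0.25 ± 0.079) and none was called in siPRMT1 or between the lines in ES cells or at day 4. The neural mean stayed between 7.28 and 7.68 over all 24 arrays.

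Wt1 rose on embryoid body formation in siPRMT1 and not in siSCR. It read 7.56, 7.76 and 7.56 in siSCR ES cells and 7.67, 7.61 and 7.58 in siSCR day 4 bodies. In siPRMT1 it read 7.4, 7.55 and 7.51, and then 8.86, 8.77 and 8.62. The 3 siPRMT1 day 4 arrays lie above the other 9, and the siSCR groups overlap. The change was 1.27 ± 0.089 in siPRMT1, or 2.41-fold (limma adjusted p = 3.57e-10), against -0.01 ± 0.089 in siSCR (adjusted p = 0.97), and the difference was 1.28 ± 0.13 (adjusted p = 3.64e-07). In ES cells the lines differed by -0.14 ± 0.089 (adjusted p = 0.335). At day 4 siPRMT1 was 2.2-fold higher (1.13 ± 0.089, adjusted p = 1.81e-08), the 38th highest difference of all genes.

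The high level of Wt1 in siPRMT1 bodies continued with treatment. With DMSO it read 9.18, 9.11 and 9.1 in siPRMT1 and 7.91, 7.8 and 7.53 in siSCR. With ATRA it read 9.31, 9.15 and 9.06, and 7.96, 8.01 and 8.11. Within siPRMT1 the DMSO arrays lie above the untreated arrays by 0.38 ± 0.089 without overlap, a difference that was not called (limma adjusted p = 0.0667) and was called in a fit without the 6 siSCR arrays (adjusted p = 0.0201). The ATRA response was 0.05 ± 0.089 in siPRMT1 (adjusted p = 0.817) and 0.28 ± 0.089 in siSCR (adjusted p = 0.0271), and these did not differ by a called amount (-0.24 ± 0.13, adjusted p = 0.351). The siSCR call was lost without the third DMSO array (0.17, adjusted p = 0.153) or the third ATRA array (0.24, adjusted p = 0.0915). Between the lines Wt1 was 2.61-fold higher with DMSO and 2.22-fold with ATRA in siPRMT1, across the border of the 6 arrays.

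The listed endoderm genes were, like Wt1, mostly higher in siPRMT1 than in siSCR at day 4. Their mean over 10 measured genes was 9.18 to 9.38 on the siSCR day 4 arrays and 10.06 to 10.19 on the siPRMT1 day 4 arrays, after 8.22 to 8.26 and 8.26 to 8.45 in ES cells. At day 4 9 of the 10 were higher in siPRMT1 (11.4% of all genes) and 0 lower, with a median of 0.75, led by Apoa1 (1.7 ± 0.082), Ttr (1.33 ± 0.11) and Apob (1.13 ± 0.11), all carriers of the visceral endoderm. Unlike Wt1 they rose in siSCR as well, 9 of 10 (14.5% of all genes) with a median of 0.78, and in siPRMT1 10 of 10 (23.0%) with a median of 1.33. Of 8 urogenital and mesothelial genes, the tissues for which Wt1 is best known, 2 were higher at day 4 in siPRMT1, Lhx1 (1.04 ± 0.099) and Pax8 (0.38 ± 0.059), and 1 was lower, Msln (-0.71 ± 0.083). Of 7 measured mesoderm genes 1 was higher, Mixl1 (0.39 ± 0.12), and 1 lower, Tbx6 (-0.31 ± 0.088). Pax2 and Pax8 stand in both the urogenital and the Pax list. The part of endoderm cells in the level of Wt1 was not tested.

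**Figure D3:**
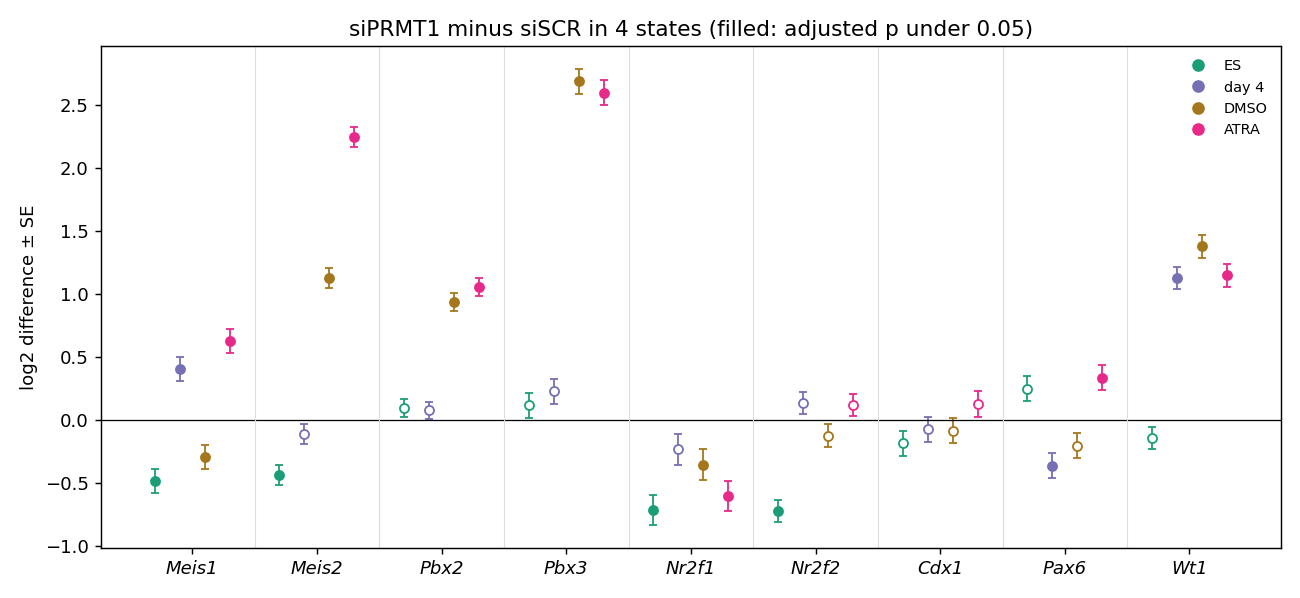
Log2 difference of siPRMT1 minus siSCR with its standard error (y axis) for each of the 9 genes in ES cells, day 4 bodies, and bodies with DMSO or ATRA (colours), with filled points for an adjusted p under 0.05. Pbx3 reaches 2.69 with DMSO and 2.6 with ATRA, in the 2 states whose siSCR arrays stand apart, while Wt1 is already at 1.13 in day 4 bodies.

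Genes that act before or beside these 9 in the retinoid pathway responded to ATRA in both lines. Of 19 measured of 20 retinoid genes 11 rose (11.2% of all genes) and 1 fell (12.2%) in siSCR, led by Stra8 (4.07 ± 0.14), a retinoid-induced germ cell gene, the retinaldehyde reductase Dhrs3 (2.39 ± 0.062) and the retinoic acid hydroxylase Cyp26a1 (1.9 ± 0.098). In siPRMT1 10 rose (6.05%) and 1 fell (5.94%), led by Stra8 (4.19 ± 0.14), Dhrs3 (2.61 ± 0.062) and the receptor Rarb (2.35 ± 0.079). The response was higher in siPRMT1 for 4, with Rarb first (1.22 ± 0.11), and lower for 2. Of 11 measured Hox genes of paralogue groups 1 to 4, whose proteins bind DNA with the TALE factors, 10 rose in siSCR (11.2%) with a median of 0.56 and 8 in siPRMT1 (6.05%) with a median of 1.34. The response was higher in siPRMT1 for 7 of the 11 (1.92% of all genes), led by Hoxb2 (2.4 ± 0.16), Hoxb1 (1.94 ± 0.11) and Hoxa3 (1.03 ± 0.13). For these Hox and retinoid genes too, the siSCR response comes from the 6 arrays that stand apart. The difference between the lines and between the arrays cannot be told apart. The pluripotency genes gave 0 higher and 3 lower of 8 with ATRA in each line.

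Among themselves the 9 genes varied in different ways over the 8 group means. Pbx2 and Pbx3 had a Pearson correlation of 0.94, Nr2f1 and Nr2f2 of 0.82, and Cdx1 and Pax6 of 0.83. Without the siSCR groups of DMSO and ATRA these were 0.81, 0.9 and 0.86 over 6 group means. Other pairs moved far more when those groups were left out: Pbx2 and Cdx1 from 0.24 to 0.9, Meis1 and Pbx3 from -0.12 to 0.84, Meis1 and Pbx2 from 0.09 to 0.77, and Pbx3 and Wt1 from 0.37 to 0.82. Outside the 9, among 4174 genes whose group means span at least 1 log2 unit, the genes most like each over 8 group means were Wdr6 and Acot2 for Meis1 (0.884 and 0.867), Arl14ep and Slc6a9 for Meis2 (0.979 and 0.968), Cntfr and Alpl for Pbx2 (0.993 and 0.989), and Qtrt1 and Tbc1d20 for Pbx3 (0.999 and 0.998). For Nr2f1 they were Tdrd7 and Ttll7 (0.986 and 0.984), for Nr2f2 Ankrd22 and Olfr376 (0.98 and 0.977), for Cdx1 Acer2 and Hoxa5 (0.991 and 0.99), for Pax6 Sorcs2 and Spsb1 (0.954 and 0.953), and for Wt1 Fndc3c1 and Rsph4a (0.999 and 0.982). These correlations are the highest of many over few points that share the border of the 6 arrays, and are given as a description.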

How the data were processed

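Total RNA of 24 samples was measured on Affymetrix arrays. The table the authors deposited holds 1 log2 value per probe set and array; that the values are log2 was read from their range, 2.14 to 14.5. The sources used here do not give how probes were summarised or normalized. Array medians were 7.47 to 7.67, and 0 pairs of arrays were identical. The precision is limited by 3 arrays a group, and signals near background were not analysed apart.

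Of 35556 probe sets, 21789 had 1 gene symbol in the platform annotation, 1621 several and 12146 none. Sets with 1 symbol were used, the brightest per gene, which left 19938 genes. One limma 3.58.1 fit in R 4.3.3 of 8 group means to all 24 arrays (16 residual degrees of freedom, median standard error 0.0932) gave 12 comparisons, with Benjamini-Hochberg adjustment over all genes and calls at an adjusted p under 0.05. The script was tested on simulated data.

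The 9 genes were named with Prmt1, up to 3 called genes of largest change from each gene list (pluripotency, fibroblast, endoderm, mesoderm, neural, urogenital, other TALE, other Nr2, other Cdx and Pax, Hox groups 1 to 4, retinoid), and for each member the 2 genes of most similar group means. Genes in more than 1 list count in each. Members and lists were chosen with earlier results of these data known. Alternatives covered normalization, arrays fitted, probe sets, dim genes, variance model, replicate block, fold threshold and each array left out.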

Additional observations from a re-analysis of the deposited data

Results flagged for a closer look

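The change on embryoid body formation differed between the lines in 6 of the 9 genes by limma's test of the difference itself, siPRMT1 minus siSCR. Wt1 differed by 1.28, Meis1 by 0.89, Nr2f2 by 0.86, Nr2f1 by 0.49, Meis2 by 0.33 and Pax6 by -0.61. The values of Nr2f1 and Meis2 are those whose adjusted p, 0.0493 and 0.0408, lay nearest the threshold. Prmt1 itself rose by 0.63 on embryoid body formation in siPRMT1, and fibroblast and endoderm genes moved in the same step, and the part of these in the 6 genes was not tested.

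The response to ATRA differed between the lines in 3 genes by the same kind of test, Meis2 by 1.12, Meis1 by 0.92 and Pax6 by 0.54. In all 3 the siSCR response comes from the 6 arrays that stand apart, and the siPRMT1 response does not, so the difference between the lines and between the arrays cannot be told apart. Prmt1 itself differed by -0.3 with ATRA in siPRMT1 (limma adjusted p = 0.00188). Its response differed between the lines by -0.33 (adjusted p = 0.0396), across the same border. The part of Prmt1 in the 3 genes was not tested.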

How the results depend on the processing

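Of 2007 values of the 9 genes under the alternatives, 1859 kept their side of the threshold, 115 lost the call and 33 gained one. No value called in either fit changed sign (0 reversed), but differences called in neither could change sign and still count among the 1859. Cdx1 between the lines with ATRA, at 0.13, ranged down to -0.06. The probe set, dim gene and fold threshold alternatives keep a member's difference and can only move its call. Leaving out 1 array made up 756 of the 2007, with 44 lost and 4 gained. Correlations of the deviations of same-numbered arrays ranged from -0.502 to 0.508, and no comparison had all 3 over 0.1, so the numbers were not taken as pairs. With the replicate block, 1 member call changed (6 in place of 7), the fall of Nr2f2 on embryoid body formation in siPRMT1 (-0.23, adjusted p = 0.0516), and the pairing changed no other member call. Members called for ATRA in siSCR numbered 1 in place of 6 with only the groups compared and 3 with array weights. For DMSO against untreated siPRMT1 bodies they numbered 1 in place of 0 without the 6 siSCR arrays, 1 without the dimmest 25% of genes and 4 with array weights. Asking for at least 2-fold left 0 called in ES cells, 1 at day 4, 3 with DMSO and 4 with ATRA between the lines, 3, 2 and 1 on embryoid body formation in siSCR, in siPRMT1 and between them, 0, 1 and 1 for ATRA likewise, and 2 for DMSO in siSCR. Leaving out 1 array gave 4 members in ES cells, 2 to 3 at day 4, 5 to 7 with DMSO, 7 to 8 with ATRA, 4 to 5, 6 to 7 and 4 to 6 on embryoid body formation, 4 to 6, 5 and 2 to 3 for ATRA, and 5 to 7 and 0 for DMSO in the 2 lines. Over all genes the shares called were then 14.7 to 15.9%, 12.6 to 16.7%, 58.2 to 64.1% and 62.3 to 71.6% between the lines. On embryoid body formation they were 23.4 to 25.8%, 34.4 to 39.1% and 20.1 to 22.8%. For ATRA they were 19.1 to 23.4%, 8.71 to 9.54% and 1.52 to 4.5%, and for DMSO 54.2 to 60.9% and 0.145 to 0.181%. Without the third siSCR DMSO array Pax6 was lower (-0.27) and Wt1 higher (0.24) with DMSO than in untreated siSCR bodies, neither of which was called otherwise, except Wt1 with arrays centred (0.22). Quantile normalization lost Pax6 at day 4 (-0.27) and in the ATRA difference (0.5), Pax6 on embryoid body formation in siSCR (-0.24), Meis2 in the difference on embryoid body formation (0.27) and Nr2f1 with ATRA in siSCR (0.35). Over all genes, fitting only the groups compared gave 544 calls for ATRA in siSCR in place of 4663, and 135 in place of 646 for the difference between the lines. That difference had 304 to 897 calls with 1 array left out. For DMSO against untreated siPRMT1 bodies the count was 92, and 286 without the 6 siSCR arrays, 145 with trend and robust variance, 56 with arrays scaled, 2536 with array weights and 29 to 36 with 1 array left out. Array weights gave 7218 in place of 3747 in ES cells, 6106 in place of 3669 at day 4, 8969 in place of 5632 and 7688 in place of 4754 on embryoid body formation in siSCR and between the lines, and for ATRA 1567 in siSCR and 7640 in place of 2391 in siPRMT1. At least 2-fold left 76, 92, 1467 and 1606 of all genes between the lines in the 4 states, from 3747, 3669, 13135 and 13984; 550, 653 and 343 on embryoid body formation, from 5632, 8252 and 4754; 63, 138 and 31 for ATRA, from 4663, 2391 and 646; and 1202 and 2 for DMSO, from 12189 and 92. The cause of these changes was not tested.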
